A study of Mus musculus with 12 samples.

Results

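The SLC25 genes encode the mitochondrial carrier family, here taken as the genes named Slc25a with a number, without Slc25a37 and Slc25a38. On the array 42 such genes had a probe set annotated with 1 gene symbol, 91 probe sets in all, out of 18193 genes with such a probe set. The probe set with the highest mean intensity over all 12 arrays stood for each gene. The rule itself names genes by symbol and uses no difference between groups. A gene was tested where its probe set exceeded the array median on at least 3 arrays, and 32 of the 42 members and 10759 of all genes passed. Each of the 32 exceeded the median on all 12 arrays, so none passed through 1 group alone.

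The arrays come from G1ME, a mouse line of megakaryocyte-erythrocyte progenitors described as Gata1-negative, so that both kinds of cell compared lack the endogenous factor per the labels. One set of cells received the MIGR1-GFP retroviral vector alone and the other the same vector carrying GATA1, the zinc finger factor needed for red cell and megakaryocyte maturation. GFP-positive cells were sorted 18 h or 42 h after transduction, which gives 4 groups of 3 arrays, lettered A, B and C. All groups are thus of 1 line, and all cells carry the retroviral vector and GFP.

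Carriers of this family are proteins encoded in the nucleus and, with few exceptions, placed in the inner mitochondrial membrane. They exchange nucleotides, phosphate, carboxylates, amino acids and coenzymes between cytosol and matrix. In red cell precursors mitochondria also make part of the heme molecule, so that substrates and iron must cross this membrane.

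The Gata1 probe set read between 2815 and 3329 in vector-labelled and between 2257 and 2435 in GATA1-labelled cells at 18 h, and between 3053 and 3268 and between 1714 and 2418 at 42 h. Its probes may fall inside or outside the disrupted stretch and the retroviral insert, which is unknown here. It therefore cannot test the labels, on which every direction below rests. Red cell genes as a sum followed the labels: the summed intensity of 10 erythroid markers lay between 647 and 1201 in vector-labelled and between 36043 and 42341 in GATA1-labelled cells at 42 h, and between 634 and 1804 and between 4134 and 5950 at 18 h. All 10 passed as higher at 42 h. At 18 h 3 passed as higher, Hbb-y, Klf1 and Epor. Alas2, Ermap, Hba-x and Slc4a1 had changes between -0.03 and -0.002 at 18 h, so that sum does not speak for each marker. The summed intensity of 9 megakaryocyte markers lay between 16529 and 16999 and between 31898 and 40615 at 42 h, and between 14614 and 17905 and between 21918 and 27753 at 18 h. Of these 9 markers 2 passed as higher at 18 h. At 42 h 6 passed as higher, and Gp9 passed as lower (-0.38, limma adjusted p = 0.0423). Itga2b had a negative change that did not pass (-0.32, limma adjusted p = 0.108). The sum of 9 mast cell markers, of which 6 (Cma1, Fcer1a, Mcpt4, Ms4a2, Tpsab1 and Tpsb2) were not above the array median on 3 arrays, lay between 1994 and 3365 and between 121 and 152 at 42 h. That of 10 myeloid markers, of which 3 (Cd14, Elane and Itgam) were not above it, lay between 2788 and 3059 and between 503 and 645. At 18 h these sums lay between 1904 and 2483 and between 909 and 1011 for the mast cell markers, and between 3154 and 3508 and between 1306 and 1843 for the myeloid ones. Of the 3 mast cell markers tested, Cpa3 and Kit fell at 42 h and Hdc did not (0.07, limma adjusted p = 0.482), so the fall of that sum is that of Cpa3 and Kit. Of 7 myeloid markers tested, 3 passed as lower at 42 h and Prtn3 as higher (0.99, limma adjusted p = 0.0010). Of 8 lymphoid markers 6 were not above the median on 3 arrays, the T cell receptor genes Cd3e and Cd3g and the B cell receptor gene Cd79a among them. The lymphoid sum lay between 109 and 184 and between 72.4 and 101 at 42 h, and between 128 and 194 and between 100 and 154 at 18 h. Of the 2 lymphoid markers tested, the B cell receptor gene Cd79b passed as lower at 42 h (-1.10, limma adjusted p = 0.0424). Ms4a1 did not pass (0.01, limma adjusted p = 0.985). The part of these shifts in the results below was not tested. GATA1 42 h replicate A stood apart in its 3' to 5' ratio of control probe sets, with a log2 ratio of 0.80 for beta-actin and -0.11 for Gapdh against 0.38 to 0.55 and -0.50 to -0.26 on the other 11 arrays, and counts of carriers without it are given with the results.

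The sequences upstream of 4 carriers are shown because these are the member that rose most, another that rose and the pair that fell at 42 h. They are the 250 bases before the annotated start, 5' to 3' on the gene's strand, from RefSeq on GRCm38.p6, and Slc25a15 has a further annotated start that is not shown. Capitals mark the E-box CACGTG, the site of MYC, USF and related factors, or the GATA motif, the letters GATA with A or T before and A or G after, read on either strand. Lower case marks all other bases.
Slc25a33, chr4:149774268-149774517, minus strand: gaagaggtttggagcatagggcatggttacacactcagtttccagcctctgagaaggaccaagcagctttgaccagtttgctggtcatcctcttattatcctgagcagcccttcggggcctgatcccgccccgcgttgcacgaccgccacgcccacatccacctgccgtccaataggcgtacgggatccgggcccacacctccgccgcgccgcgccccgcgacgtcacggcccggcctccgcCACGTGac
Slc25a15, chr8:22398278-22398527, minus strand: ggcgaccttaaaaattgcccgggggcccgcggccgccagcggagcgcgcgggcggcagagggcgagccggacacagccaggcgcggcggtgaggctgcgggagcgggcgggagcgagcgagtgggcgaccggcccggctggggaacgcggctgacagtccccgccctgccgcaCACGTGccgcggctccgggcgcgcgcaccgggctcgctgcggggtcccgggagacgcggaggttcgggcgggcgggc
Slc25a12, chr2:71367756-71368005, minus strand: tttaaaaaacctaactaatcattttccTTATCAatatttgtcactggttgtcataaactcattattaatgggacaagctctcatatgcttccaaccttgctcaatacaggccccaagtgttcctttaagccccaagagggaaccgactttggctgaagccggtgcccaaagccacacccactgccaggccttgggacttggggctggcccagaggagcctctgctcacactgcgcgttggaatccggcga
Slc25a45, chr19:5877572-5877821, plus strand: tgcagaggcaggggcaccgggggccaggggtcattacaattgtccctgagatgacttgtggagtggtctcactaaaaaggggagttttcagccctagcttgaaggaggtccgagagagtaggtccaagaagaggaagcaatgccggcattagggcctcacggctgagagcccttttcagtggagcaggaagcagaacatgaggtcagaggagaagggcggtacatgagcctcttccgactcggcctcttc

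The promoter table held 42 windows for 33 of the 42 members, each running from 250 bases before to 50 bases after the start. The GATA motif was found in 8 of the 42 windows (19.0%), against 29.8% of all 32851 windows in the table. These 8 windows belong to 7 genes, because 2 windows of Slc25a23 overlap and share 1 motif. Of the 7 windows of carriers that rose at 42 h 0 held one, and of the 2 windows of carriers that fell 1 did, that of Slc25a12, where the letters TTATCA start 223 bases before the start. Of the 26 windows of tested carriers that did not pass at 42 h 5 held one. The E-box was in 8 of the 42 windows (19.0%) against 7.15% of all windows, and in 2 of the 7 windows of carriers that rose, those of Slc25a33, 8 bases before the start, and Slc25a15, 77 bases before it. The other window of Slc25a15 held no E-box. The 8 windows with an E-box belong to 7 genes, because 2 windows of Slc25a14 overlap and share 1 E-box. Of the 26 windows of tested carriers that did not pass at 42 h 5 held an E-box. The NRF1 motif, named for a factor that acts on many genes of mitochondrial proteins, was in 2 member windows (4.76%), of Slc25a3 and Slc25a31, against 4.60% of all. The median number of CG pairs in the 250 upstream bases was 12 for the members and 6 for all windows. The shares were not adjusted for base composition. These counts describe letters within the windows only.

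At 42 h 8 of the 32 tested carriers passed the test of GATA1-labelled against vector-labelled cells. Slc25a33, Slc25a15, Slc25a24, Slc25a16, Slc25a47 and Slc25a42 rose, and Slc25a45 and Slc25a12 fell. The share called, 25.0%, stands beside 20.9% of all 10759 genes tested, so the family as a whole was near the background. By direction 6 carriers rose where 10.3% of all genes did, and 2 fell where 10.6% did. The median change of the 32 was 0.01 against 0.001 for all genes, with 16 above and 16 below 0, so the family did not move as a block. For 13 of the 32 carriers, and for 33.4% of all genes, no array of one group lay within the range of the other. Differences are in mean log2(intensity + 16) throughout, given with the SE, and were tested with limma with Benjamini-Hochberg adjustment over all genes. Intensities are linear, each of 3 arrays per group. Adjusted p under 0.05 is the threshold. Intensity is measured per amount of RNA and not per cell, and fewer cells of a type and less RNA per cell cannot be told apart.

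**Figure D1:**
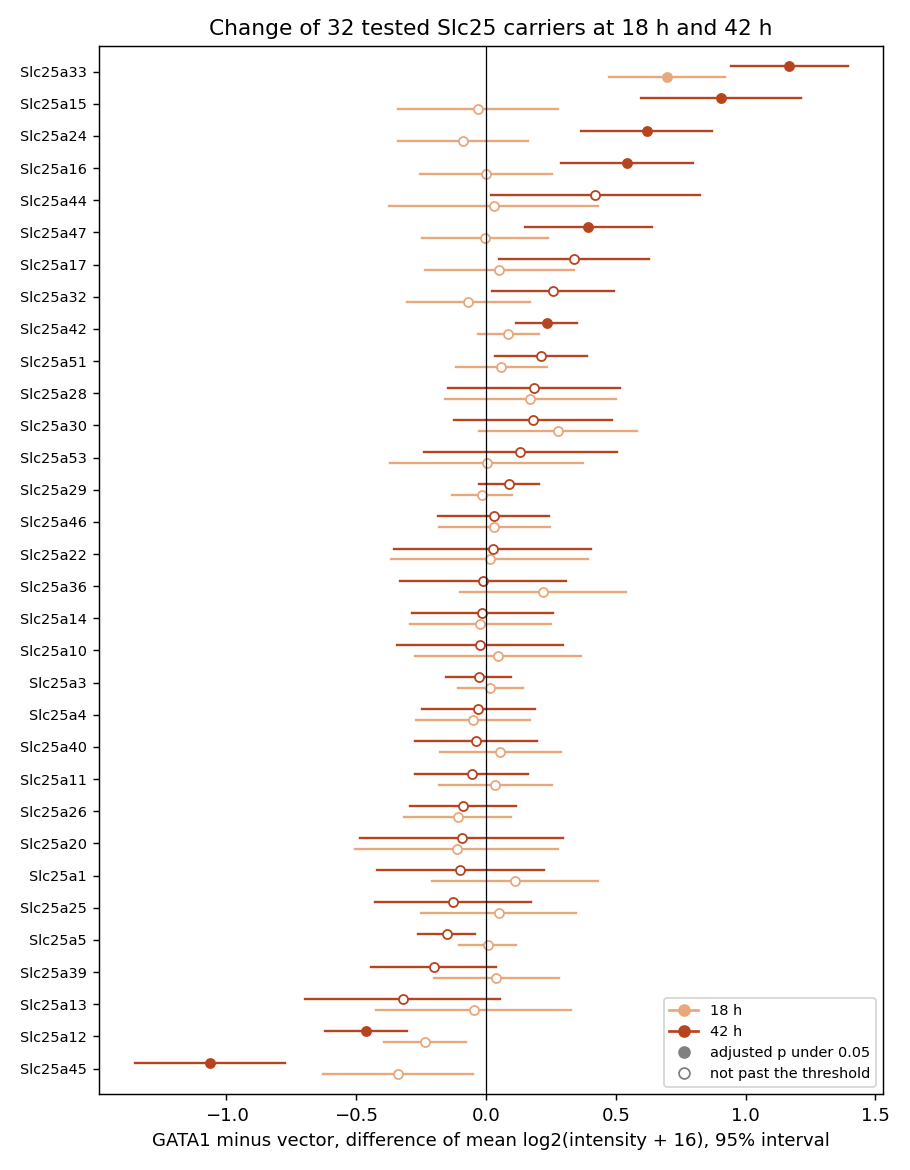
Difference between GATA1-labelled and vector-labelled cells in mean log2(intensity + 16) (horizontal axis) for each of the 32 tested carriers (rows), at 18 h and 42 h in 2 colours, with 95% intervals from limma over 12 arrays; filled points passed an adjusted p of 0.05. Slc25a33 has filled points right of 0 at both times (0.70 and 1.17), Slc25a15, Slc25a24 and Slc25a16 at 42 h, and Slc25a45 and Slc25a12 have filled points left of 0 at 42 h.

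At 18 h 1 of the 32 carriers passed, Slc25a33, against 1.85% of all genes in either direction and 1.11% higher. The other 31 had changes between -0.34 (Slc25a45) and 0.28 (Slc25a30), and their lowest limma adjusted p was 0.195, that of Slc25a12. For 5 of the 32 the arrays did not overlap between the groups, against 15.4% of all genes. These were Slc25a33, Slc25a30 and Slc25a42, higher in GATA1-labelled cells, and Slc25a12 and Slc25a45, lower. The call of Slc25a33 ended with only the 6 arrays of 18 h in the fit (adjusted p = 0.111) and without the 4 arrays lettered A (0.0588).

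The carriers of nucleotides, coenzymes and vitamins held 3 of the 6 rises, out of 8 tested genes with a median change of 0.25 at 42 h, beside 10.3% higher and a median of 0.001 over all genes. The counts for this and the other roles, of 1 to 8 tested genes each, describe these genes only. Slc25a33 encodes a pyrimidine nucleotide carrier that serves the making of mitochondrial DNA and RNA. Its intensity on arrays A, B and C was 523, 651 and 710 in vector-labelled and 969, 1020 and 1072 in GATA1-labelled cells at 18 h. At 42 h it was 569.5, 578.5 and 647 against 1339, 1360 and 1393. All 6 GATA1-labelled arrays lay above all 6 vector-labelled arrays, and the later GATA1-labelled arrays above the earlier ones. It rose by 0.70 ± 0.10 at the earlier time (1.62-fold, limma adjusted p = 0.0075). The later rise was 1.17 ± 0.10 (2.25-fold, limma adjusted p = 3.77e-05). Its effect at 42 h exceeded that at 18 h by 0.47 ± 0.14, which missed the threshold (limma adjusted p = 0.112) and passed it with the replicate letter as a block (adjusted p = 0.0292, replicate block), with array weights (0.0341), or without vector 18 h replicate A (0.0116).

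Slc25a16, linked to the supply of coenzyme A to mitochondria, did not differ beyond its spread at 18 h and rose at 42 h. At 18 h it read 531, 457 and 377 in vector-labelled and 488, 437 and 430 in GATA1-labelled cells, which overlap (95% interval of the change -0.25 to 0.25, limma adjusted p = 0.9999). At 42 h it read 352, 393 and 418 against 551.5, 599 and 563, with no overlap (0.54 ± 0.11, limma adjusted p = 0.0076). The difference of its effects, 0.54 ± 0.16, did not pass (limma adjusted p = 0.107) but did without vector 18 h replicate C (0.0256). Slc25a42, the mitochondrial importer of coenzyme A, was dim, where changes are compressed by the pseudocount. It read 48.3, 50.1 and 47.0 against 53.7, 50.7 and 52.8 at 18 h, and 50.5, 50.4 and 43.2 against 55.7, 60.5 and 61.4 at 42 h. The groups were close but apart at both times, and the rise at 42 h was 0.23 ± 0.05 (limma adjusted p = 0.0118), lost with only the arrays of 42 h in the fit (0.0754). The other 5 tested genes of this role did not pass at 42 h. They are Slc25a51, an importer of NAD, with a change of 0.21 ± 0.08 (limma adjusted p = 0.0901), Slc25a32, a carrier linked to folate and flavin, with 0.26 ± 0.11 (0.124), the peroxisomal carrier Slc25a17 with 0.34 ± 0.13 (0.0980), the pyrimidine nucleotide carrier Slc25a36 with -0.01 ± 0.14 (0.993) and the S-adenosylmethionine carrier Slc25a26 with -0.09 ± 0.09 (0.595). Array weights brought a call for Slc25a32 (0.0331) and Slc25a51 (0.0292). The call for Slc25a17 appeared on leaving out vector 42 h replicate C (adjusted p = 0.0315), as did that for Slc25a32 (0.0389), and that for Slc25a51 without GATA1 18 h replicate A (0.0444). The paralogs Slc25a33 and Slc25a36, which carry the same class of substrate, thus stood at 1.17 and -0.01 in their brightest probe sets. The difference between them was not tested. In the second brightest probe set of Slc25a36 the change at 42 h had the other sign and did not pass (0.31 ± 0.23, limma adjusted p = 0.43).

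**Figure D2:**
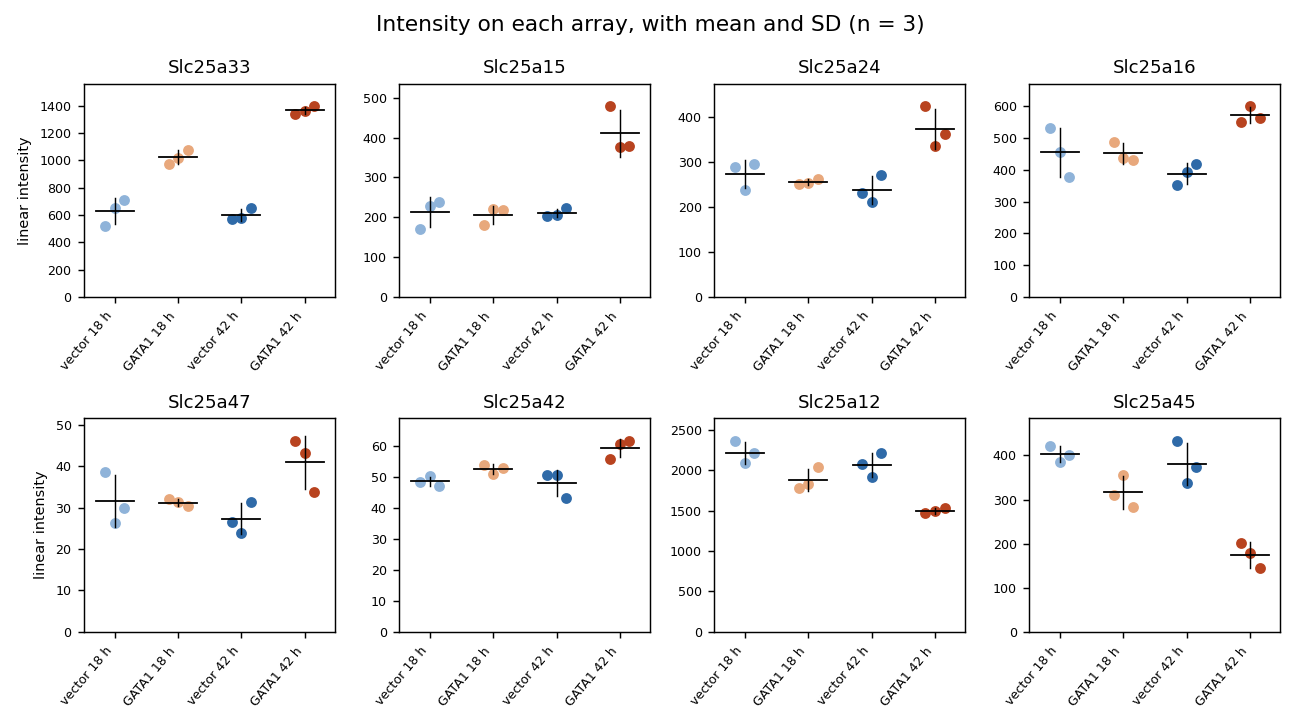
Linear intensity (vertical axis, from 0, scaled per gene) on each of the 12 arrays for the 8 carriers that passed the test in at least 1 comparison, by group, with arrays A, B and C from left to right within a group; horizontal bars are means and vertical bars SD (n = 3). Slc25a33 is higher in both GATA1-labelled groups (1020 ± 51.5 and 1364 ± 27.5, against 628 ± 96.0 and 598.5 ± 42.6), while Slc25a15 is higher in the GATA1-labelled group of 42 h alone (411 ± 58.6 against 211 ± 11.1 in vector-labelled cells).

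Among carriers of basic and branched-chain amino acids 1 of 3 tested genes rose at 42 h. Slc25a15 encodes the exchanger of ornithine and citrulline, known from the urea cycle. It read 170, 229 and 239 in vector-labelled and 179.5, 219.9 and 219.6 in GATA1-labelled cells at 18 h. The 42 h arrays read 204, 205 and 223 against 478, 375.5 and 378. The groups overlapped at 18 h (-0.03 ± 0.14, limma adjusted p = 0.9999) and were apart at 42 h (0.90 ± 0.14, 1.87-fold, adjusted p = 0.0013), with GATA1 42 h replicate A highest. Slc25a44, a branched-chain amino acid carrier, read 118.1, 143.6 and 143.3 against 143.7, 170 and 259 at 42 h. The groups were apart by a hair, GATA1 42 h replicate C was far above the others, and the change of 0.42 ± 0.18 missed the threshold (limma adjusted p = 0.139). It passed with the replicate block (adjusted p = 0.0289) and without GATA1 42 h replicate A (0.0407). Slc25a29, a carrier of basic amino acids, was dim and changed by 0.09 ± 0.05 (limma adjusted p = 0.298).

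Of the ATP-Mg/phosphate carriers, which are regulated by calcium and adjust the adenine nucleotide pool of the matrix, 2 were tested and 1 rose at 42 h. Slc25a24 read 288, 238 and 296 in vector-labelled and 252, 252 and 262 in GATA1-labelled cells at 18 h. Values at 42 h were 230, 212 and 272 against 423, 336 and 362. The 18 h groups overlapped (-0.09 ± 0.11, limma adjusted p = 0.9999), and the 42 h groups did not (0.62 ± 0.11, 1.54-fold, adjusted p = 0.0036). Without the 4 arrays lettered A the change at 42 h was 0.51 (adjusted p = 0.0739). Slc25a25 did not pass (-0.13 ± 0.13, limma adjusted p = 0.600).

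The effect of GATA1 was larger at 42 h than at 18 h for 2 carriers, Slc25a15 (a difference of effects of 0.94 ± 0.19, limma adjusted p = 0.0264) and Slc25a24 (0.71 ± 0.16, adjusted p = 0.0366). This is 2 of 32, against 4.66% of all genes in either direction and 2.29% larger at 42 h. Both calls depended on single arrays. That of Slc25a15 ended without any 1 of vector 18 h replicates B and C, GATA1 18 h replicates A, B and C, and vector 42 h replicates A and B, with an adjusted p between 0.0508 and 0.0689. That of Slc25a24 ended without any 1 of those arrays other than vector 18 h replicate B, or without vector 18 h replicate A, GATA1 42 h replicate A or GATA1 42 h replicate C, with an adjusted p between 0.0616 and 0.0897. With the replicate block 4 carriers passed, Slc25a33 and Slc25a45 in addition, against 7.86% of all genes in that fit.

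Of the 3 tested carriers of aspartate and glutamate, 1 fell at 42 h. Slc25a12 encodes aralar, an aspartate and glutamate exchanger of the malate-aspartate shuttle that brings reducing equivalents into mitochondria. It read 2361, 2086 and 2210 in vector-labelled and 1780, 1832 and 2041 in GATA1-labelled cells at 18 h. By 42 h it read 2079, 1919 and 2213 against 1466, 1493 and 1531. GATA1-labelled arrays were lower without overlap at both times, by -0.23 ± 0.07 at 18 h (limma adjusted p = 0.195) and by -0.46 ± 0.07 at 42 h (adjusted p = 0.0013). Its paralog Slc25a13, citrin, had a change of -0.32 ± 0.17 at 42 h (limma adjusted p = 0.229) with overlapping arrays, and the glutamate carrier Slc25a22 one of 0.03 ± 0.17 (0.984).

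The carriers of less settled substrate held the largest fall of the 32 and a small rise among 4 tested genes. Slc25a45 read 421, 386 and 402 in vector-labelled and 309.9, 357 and 282 in GATA1-labelled cells at 18 h. Its 42 h values were 432, 338 and 373 against 202, 178 and 143.5. At each time the GATA1-labelled arrays lay below all vector-labelled arrays. The change was -0.34 ± 0.13 at the earlier time (limma adjusted p = 0.360). The later fall was -1.06 ± 0.13 (2.09-fold lower, limma adjusted p = 3.15e-04). Its difference of effects, -0.72 ± 0.18, lay just outside the threshold (limma adjusted p = 0.0582) and passed with the replicate block (adjusted p = 0.0321) and without GATA1 42 h replicate A (0.0344). It also passed with a stricter filter (0.0417), quantile normalization (0.0320), median centring (0.0303) or array weights (0.0274). Slc25a47, known from liver, was dim, at 26.6, 23.9 and 31.4 against 46.0, 43.2 and 33.8 at 42 h. GATA1 42 h replicate C lay near the highest vector-labelled array, and the rise of 0.39 ± 0.11 (limma adjusted p = 0.0295) ended without vector 42 h replicate A (0.0817), vector 42 h replicate B (0.101), GATA1 42 h replicate A (0.0919) or GATA1 42 h replicate B (0.0956), with no filter (0.0629), with only the arrays of 42 h (0.0734) and without the 4 arrays lettered A (0.141). At 18 h it read 38.5, 26.4 and 29.8 against 31.96, 31.4 and 30.3. Slc25a46, an outer membrane protein that takes part in mitochondrial shape, and Slc25a53 did not pass (0.03 ± 0.09 and 0.13 ± 0.17, limma adjusted p = 0.935 and 0.681).

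**Figure D3:**
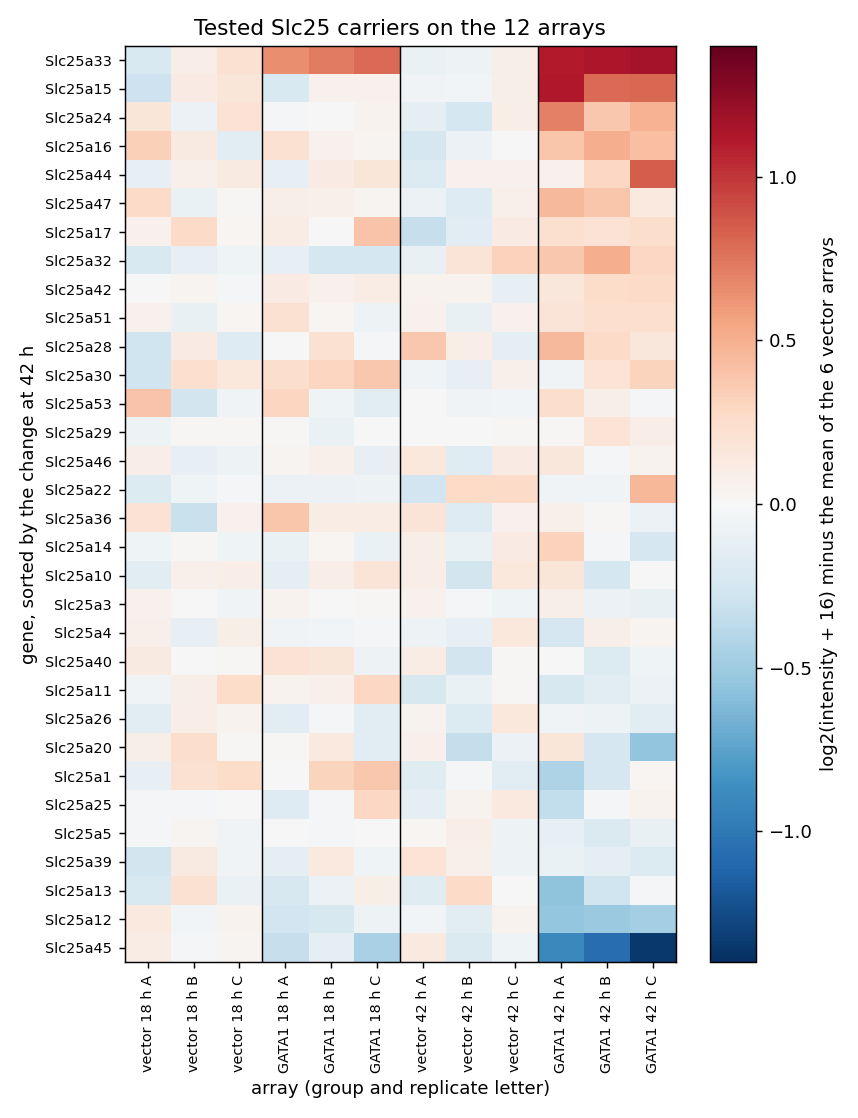
Values of the 32 tested carriers (rows, sorted by the change at 42 h) on the 12 arrays (columns, in 4 groups of 3), as log2(intensity + 16) minus the mean of the 6 vector-labelled arrays of that gene, from blue (lower) to red (higher). Slc25a33 is red on all 6 GATA1-labelled arrays. Slc25a45 is blue on the 3 GATA1-labelled arrays of 42 h and paler on those of 18 h, whereas most genes, among them Slc25a3, are pale on every array.

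The carriers of the main energy pathways did not pass at either time. Slc25a5 and Slc25a4 encode ADP/ATP carriers, which export the ATP made by oxidative phosphorylation, and Slc25a3 the phosphate carrier that supplies its phosphate. Slc25a5 read 21695, 22679 and 21412 in vector-labelled and 22303, 21683 and 22095 in GATA1-labelled cells at 18 h. At 42 h it read 22600, 23550 and 21024 against 20523, 19259 and 20639, with no overlap. The change at 42 h was -0.15 ± 0.05 (95% interval -0.26 to -0.04), just short of the threshold (limma adjusted p = 0.0541). It passed without vector 42 h replicate C (0.0181), with a pseudocount of 64 (0.0412) or with array weights (0.0112). Slc25a4 changed by -0.03 (95% interval -0.25 to 0.19) and Slc25a3 by -0.03 (-0.15 to 0.10). The second brightest probe set of Slc25a4 had the other sign at 42 h, at 8892, 8649 and 9089 against 10081, 9552 and 9254. That change did not pass (0.12 ± 0.05, limma adjusted p = 0.137). Of the 3 probe sets of Slc25a4 that passed the filter 2 had a higher and 1 a lower mean in GATA1-labelled cells at 42 h.

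The citrate carrier Slc25a1, which exports citrate for fatty acid and sterol synthesis, read 2397, 2998 and 3090 in vector-labelled and 2592, 3211 and 3369 in GATA1-labelled cells at 18 h. The 42 h arrays read 2305, 2553 and 2321 against 1918, 2198 and 2634. The groups overlapped at both times (-0.10 ± 0.14 at 42 h, 95% interval -0.42 to 0.22). The dicarboxylate carrier Slc25a10 and the oxoglutarate carrier Slc25a11, which works in the malate-aspartate shuttle beside Slc25a12, had changes of -0.02 (-0.34 to 0.30) and -0.06 (-0.27 to 0.16). Slc25a20, the carnitine-acylcarnitine carrier that brings fatty acids to oxidation, read 904, 1016 and 863 against 864, 939 and 769 at 18 h. Values at 42 h were 900.2, 677.5 and 807 against 965, 723 and 578. Its arrays overlapped widely in this probe set (-0.09, -0.48 to 0.30). In the second brightest probe set of Slc25a20 they did not overlap at 42 h, at 438, 380.5 and 386 against 353, 370 and 316. That change did not pass either (-0.20 ± 0.08, limma adjusted p = 0.101).

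Among the uncoupling-protein-like carriers, Slc25a30 read 350.0, 507 and 479.5 in vector-labelled and 515, 532 and 564 in GATA1-labelled cells at 18 h. By 42 h it read 414.3, 395 and 452 against 414.2, 491 and 537. It was apart at 18 h (0.28 ± 0.14, limma adjusted p = 0.591) and overlapped at 42 h (0.18 ± 0.14, 0.426). Slc25a14 changed by -0.01 at 42 h (95% interval -0.29 to 0.26). Slc25a28, mitoferrin 2, imports iron into mitochondria of many tissues. It read 169, 227 and 183 against 207, 244.5 and 204 at 18 h, and 275, 224 and 188 against 292, 255 and 235 at 42 h. The groups overlapped at both times (0.19 ± 0.15 at 42 h, limma adjusted p = 0.461). Slc25a39 and Slc25a40 are carriers of glutathione. Slc25a39 read 7371, 9615 and 8562 against 8012, 9702 and 8487 at 18 h, and 10083, 9302 and 8388 against 8278, 8061 and 7742 at 42 h. It was lower without overlap at 42 h but did not pass (-0.20 ± 0.11, limma adjusted p = 0.243), and Slc25a40 changed by -0.04 ± 0.10 (0.904). The second brightest probe set of Slc25a39 changed by -0.001 ± 0.15 at 42 h (limma adjusted p = 0.9996). Of its 4 probe sets that passed the filter 3 had a lower and 1 a higher mean in GATA1-labelled cells.

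Of the 24 tested carriers that did not pass at 42 h, 19 had a 95% interval of the change within 0.5 on either side of 0. The 24 changes ran from -0.32 (Slc25a13) to 0.42 (Slc25a44). Another 10 members were not tested, since their probe sets read between 4.05 and 8.98, against array medians of 8.05 to 8.29. These were Slc25a2, Slc25a18, Slc25a23, Slc25a27, Slc25a31, Slc25a34, Slc25a35, Slc25a41, Slc25a48 and Slc25a54. They include the ornithine carrier paralog Slc25a2, the glutamate carrier paralog Slc25a18 and Slc25a31, the ADP/ATP carrier of the testis. Whether they are silent in these cells or poorly measured was not tested.

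In vector-labelled cells 0 of the 32 carriers differed between 42 h and 18 h by limma (1 at an unadjusted p under 0.05), against 0.0186% of all genes. Changes lay between -0.24 (Slc25a17) and 0.27 (Slc25a32), with a median of -0.01, and the lowest adjusted p was 0.704. For 26 of the 32 the 95% interval lay within 0.5 on either side of 0. The arrays of the 2 times overlapped for all 32, against 10.3% of all genes without overlap. The comparisons at 42 h and over time share the vector arrays of 42 h.

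A second probe set of the same gene was bright enough to be tested for 19 of the 32 carriers. At 42 h its change had the sign of the brightest probe set for 14 of the 19. Of the 8 called carriers 3 had one. Slc25a24 rose in both, by 0.62 in each (51.2 ± 6.1 against 88.6 ± 19.8 in the dimmer one, limma adjusted p = 0.0097). Slc25a15 rose by 0.90 in the brighter, and in the dimmer one (16.9 ± 3.9 against 35.6 ± 17.1) the change was 0.60 ± 0.28 (adjusted p = 0.173). Slc25a12 fell in the brighter one alone, since the other read 14.3 ± 0.8 and 13.8 ± 3.6 (-0.04 ± 0.09, limma adjusted p = 0.892), well below its brightest probe set.

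For 3 carriers the second probe set passed where the brightest did not. Slc25a32 read 420 ± 66.0 against 630 ± 90.5 there (0.57 ± 0.14, limma adjusted p = 0.0154). Slc25a44 read 114 ± 3.7 against 145 ± 11.7 (0.31 ± 0.09, adjusted p = 0.0367), and Slc25a51 read 576 ± 38.2 against 768 ± 52.0 (0.41 ± 0.12, adjusted p = 0.0453). All 3 were higher in GATA1-labelled cells in both probe sets. Slc25a5 has 8 probe sets that passed the filter, of which 6 had a lower and 2 a higher mean in GATA1-labelled cells at 42 h, so its probe sets disagree. Probe sets whose names end in x_at or s_at, which are the brightest for Slc25a5, Slc25a39, Slc25a29, Slc25a26 and Slc25a47 and the second brightest for Slc25a5, Slc25a39, Slc25a20, Slc25a25 and Slc25a32, hold probes that can also match other transcripts, and ADP/ATP carriers have close paralogs and many pseudogenes.

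**Figure D4:**
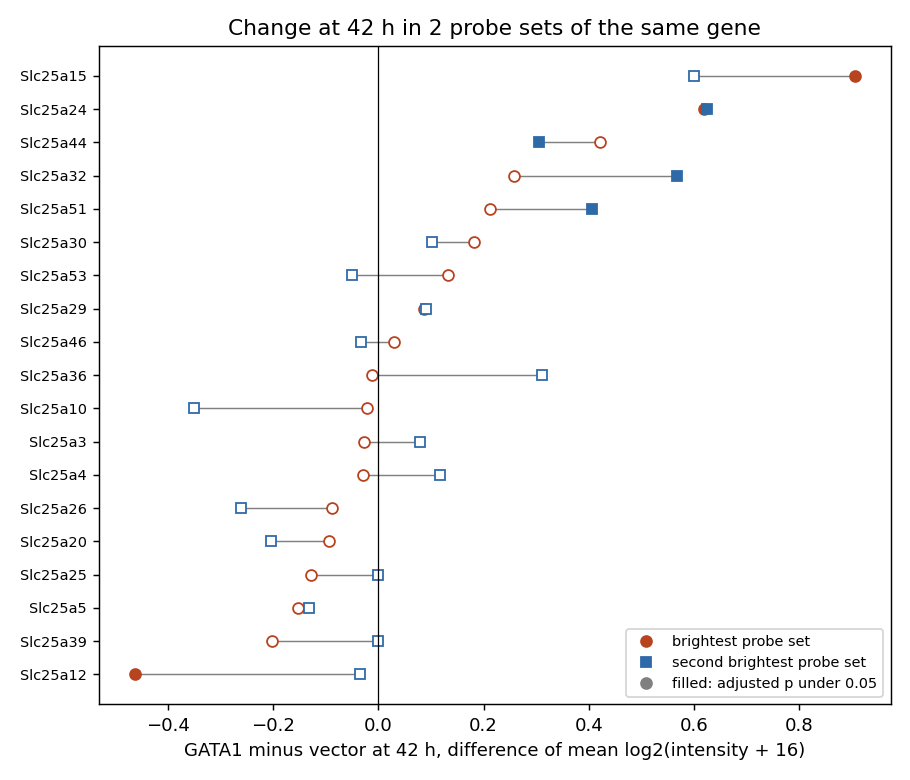
Change at 42 h (horizontal axis, difference of mean log2(intensity + 16), GATA1-labelled minus vector-labelled) for the 19 carriers with 2 tested probe sets (rows), in the brightest (circles) and the second brightest probe set (squares); filled symbols passed an adjusted p of 0.05. The symbols of Slc25a24 coincide at 0.62, while those of Slc25a12 lie at -0.46 and -0.04.

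Family members that the rule leaves out were read alongside. Slc25a37, mitoferrin 1 of red cell precursors, went from 352 ± 48.3 to 553 ± 25.0 at 42 h (0.64 ± 0.13, limma adjusted p = 0.0079) and Slc25a38, a carrier linked to glycine supply for heme, from 133 ± 7.3 to 229 ± 47.7 (0.70 ± 0.12, adjusted p = 0.0031). The carrier-related proteins of the outer membrane Mtch1 and Mtch2 did not pass (-0.29 and 0.06, limma adjusted p = 0.381 and 0.600).

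Other genes of mitochondrial membrane transport gave 4 rises and 1 fall among 16 tested at 42 h (median -0.03), and 1 rise at 18 h. Over all genes tested 10.3% rose and 10.6% fell at 42 h, 20.9% together, and 1.11% rose at 18 h. The same shares stand beside the counts of the lists below. The ABC transporters Abcb6 and Abcb10, both linked to heme synthesis, rose by 2.16 ± 0.08 and 1.71 ± 0.32 (limma adjusted p = 2.26e-07 and 0.0043), and Abcb6 had risen by 0.69 ± 0.08 at 18 h (adjusted p = 0.0032). Tspo, the outer membrane translocator protein, fell by 1.05 on the log2 scale, from 3317 ± 623 to 1621 ± 466 (limma adjusted p = 0.0056). Of 14 tested genes of the TIM and TOM protein import machines, which also insert the carriers, 1 rose, Timm17a, from 2839 ± 240 to 4060 ± 177 (0.52 ± 0.06, limma adjusted p = 2.51e-04). Of 12 regulators of mitochondrial biogenesis, such as Ppargc1b, Nrf1 and Tfam, 0 passed limma's test at 42 h (1 at an unadjusted p under 0.05), with a median of -0.01.

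Over all comparisons 11 calls were made for 8 carriers, and 3 of them, those of Slc25a33, Slc25a45 and Slc25a16 at 42 h, held under every alternative that could be run on them. These 3 genes have 1 probe set each, so the second brightest probe set, which ended the 42 h calls of Slc25a12 and Slc25a15, could not be tried for them. Without GATA1 42 h replicate A 8 carriers passed at 42 h, against 19.3% of all genes, and 1 at 18 h, against 1.86%. Without the 4 arrays lettered A 6 passed at 42 h, against 16.3% of all genes, and 0 at 18 h, against 0.316%.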

How the data were processed

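Intensity values of 45101 probe sets on 12 arrays were used as deposited, on a linear scale. GCRMA and MAS5 appear in the submitters' processing notes with neither version nor role, so which of them the authors used for these intensity values is unknown here, and no further normalization was applied. Array medians lay between 8.05 and 8.29, and at most 0.0266% of values were identical between 2 arrays. The labels call the triplicates biological. Their letters name no culture or day.

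Probe sets were named from the platform annotation, 34945 of them by 1 symbol, and 34741 matched a RefSeq gene ID of GRCm38.p6. Values were analysed as log2(intensity + 16) with limma 3.58.1 in R 4.3.3 (lmFit, eBayes) over all 12 arrays in 4 groups, two-sided, with Benjamini-Hochberg adjustment over 10759 genes and a threshold of 0.05, and the code was tested on simulated data. The number of arrays limits the precision. Members, roles and lists were chosen with earlier results of these data known. Every member is accounted for, with all arrays given for those past the threshold and for the brightest of each other role. Of the 45 genes with a role, 41 were matched, and the others are not analysed here. Context genes named are the most changed past the threshold, apart from Ppargc1b, Nrf1 and Tfam, named as examples. A protein table was not used here.

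Same-lettered arrays deviated together from their group means, with correlations between -0.11 and 0.66. They were over 0.1 in 16 of 18 pairs, and in all 6 pairs within the comparisons at 18 h and at 42 h. The letter may thus pair the arrays there. The main fit, behind every p value not marked otherwise, did not use the letter and so ignored such pairing. The fit with the letter as a block was an alternative, beside other pseudocounts, filters, scalings, weights, probe sets and arrays left out.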

Additional observations from a re-analysis of the deposited data

Results flagged for a closer look

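For 2 carriers the effect of GATA1 differed between the times by a test of that difference. The effect on Slc25a15 was larger at 42 h by 0.937 on the log2 scale (limma adjusted p = 0.0264), and the 3 GATA1-labelled arrays of 42 h lay above the other 9. That on Slc25a24 was larger by 0.707 (limma adjusted p = 0.0366), with the same order of arrays. Leaving out single arrays ended both calls, as given above.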

How the results depend on the processing

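The number of carriers passing at 42 h, 8, stayed between 6 and 11 under all alternatives. It was 6 with only the 42 h arrays (15.6% of all genes called in that fit), with a stricter filter (25.1%, 27 carriers tested) and without the 4 arrays lettered A (16.3%), and 11 with array weights (27.2%) and without vector 42 h replicate C (19.8%). For vector-labelled cells over time 0 passed limma's test under each alternative. At 18 h the count of 1 became 0 when the fit held the 6 arrays of 18 h alone (0.502% of all genes), and 0 without the 4 arrays lettered A (0.316%). For the difference of effects between the times, the count of 2 became 4 with array weights (6.84% of all genes) and 4 with the replicate block (7.86%), 1 with an intensity trend (4.26%) and 1 without the 4 arrays lettered A (2.41%), and 0 with no filter (1.75%) and 0 with the second brightest probe set (4.62%). Leaving out single arrays it ran from 0 to 2, with 3% to 4.98% of all genes called in those fits. The cause was not tested. The replicate block gave 9 carriers at 42 h (28.1%, against 28.4% of all genes in that fit), adding Slc25a44, and 1 at 18 h (against 3.33%). Beside these and the calls for the difference of effects of Slc25a33 and Slc25a45, it changed no call of a carrier. Over the alternatives no change of a carrier called in any fit turned its sign. Dim probe sets, such as those of Slc25a42 and Slc25a47, are limited by signal near the bottom of the scale.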
